A study of Mus musculus with 2 samples.

Results

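The synthesis, binding, sensing and removal of retinoic acid were followed in the fracture callus through 8 genes, picked by symbol from the 32285 genes counted in each library. Aldh1a1, Aldh1a2 and Aldh1a3 encode the retinaldehyde dehydrogenases that make retinoic acid. Crabp2 encodes a carrier that brings it to its receptors, Rara, Rarb and Rarg encode the receptors themselves, and Cyp26b1 encodes a cytochrome P450 that breaks retinoic acid down. All 8 were found in both libraries, and 4 of them (Aldh1a3, Rara, Rarg and Cyp26b1) held at least 100 UMIs in the kept cells of each. They were chosen with their levels in these cells already known, so the levels below are descriptions and no test was made on them.

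Retinoic acid is made from retinol in 2 oxidation steps and acts in the nucleus on receptors that pair with retinoid X receptors on DNA. In developing limbs and growth plates it is known to act against the early cartilage programme and to promote the late, hypertrophic stage of chondrocytes, in which Col10a1 is switched on and the matrix mineralises. Cells that express a Cyp26 enzyme are known to keep their own retinoic acid level low.

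The cells came from calluses of wild-type C57BL/6J mice (males, 12 weeks old) after a femoral fracture, with no other treatment named. The series describes calluses taken at 10 days (n = 5) and at 20 days (n = 5). The labels of the 2 single-cell libraries, MGJ and MGJ2, do not say which day or how many mice each one holds. The libraries were therefore read separately, each as a single sample with no replicate, and no comparison between days was made.

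MGJ held 14295 barcodes with a median of 5026 UMIs (unique molecular identifiers, each marking 1 captured RNA molecule) and MGJ2 held 8009 with a median of 4952. After filters on genes, mitochondrial UMIs and doublet score, 12947 and 7568 cells were kept. The libraries shared 19 barcodes. Chondrocyte-like cells made up 20.6% of the kept cells of MGJ (2663 cells) but only 1.89% of those of MGJ2 (143 cells), and all 12 of their marker genes were detected in both, Col2a1 at 55680 and 44291 CPM (counts per 1000000 UMIs of the class). They were split by the Col10a1 level of the single cell into a low stage (under 1000 CPM), a moderate stage and a high stage (10000 CPM or more), with 1746, 374 and 543 cells in MGJ and 58, 27 and 58 in MGJ2. Within 2-fold of the lower cut lay 111 cells below and 105 above it in MGJ (9 and 5 in MGJ2), and within 2-fold of the upper cut 123 below and 173 above it (9 and 12 in MGJ2), so the stages are ranges and not types. All intervals given are 95% intervals of counting error alone (exact Poisson for levels, exact binomial for ratios and shares) and do not cover the spread between mice.

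One of the 8 genes carried in its promoter the sequence through which retinoic acid receptors classically act. Receptor pairs bind 2 copies of a 6-base half-site in the same orientation. Promoters of 300 bases around the transcription start were found in the RefSeq table for 6 of the 8 genes, all but Aldh1a3 and Crabp2, and were searched on both strands for a half-site repeated with 5 bases (NNNNN) between the copies. The half-site AGGTCA was allowed, as was AGTTCA, and likewise the forms GGGTCA or else GGTTCA. Only Rarb held a match, from 53 to 37 bases before its start. The 6 genes had 11 promoters in the table, and a match was found in 0.0974% of all 32851 promoters, or in 0.115% of all 27025 genes. None of the 6 held the same half-sites with 2 bases (NN) between them, which 0.268% of all promoters did. The Rarb promoter (GRCm38.p6, chr14:16575427-16575726, minus strand, RefSeq) is shown because Rarb is the textbook example of a gene that reads out retinoic acid through this element, with the repeat in capitals.

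Rarb: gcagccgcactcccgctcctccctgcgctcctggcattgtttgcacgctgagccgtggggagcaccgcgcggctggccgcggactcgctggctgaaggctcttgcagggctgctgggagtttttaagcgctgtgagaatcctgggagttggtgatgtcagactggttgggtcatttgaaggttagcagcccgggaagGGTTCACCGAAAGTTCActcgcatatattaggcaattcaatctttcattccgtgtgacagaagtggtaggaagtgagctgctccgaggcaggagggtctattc

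Aldh1a3 (chr7:66390890-66427517, minus strand, coordinates of the GENCODE M21 annotation on GRCm38, as for the other genes) was highest in the chondrocytes with most Col10a1. In MGJ its level was 18.4 CPM (17.1 to 19.9, 672 UMIs) in low-Col10a1 cells, 108 CPM (102 to 116) in moderate cells and 448 CPM (436 to 461, 5093 UMIs) in high-Col10a1 cells. In MGJ2 it was 24.8 CPM (17.8 to 33.6, 41 UMIs), 116 CPM (93.7 to 142) and 299.7 CPM (275 to 326, 545 UMIs). The 3 stages thus stood in the same order in both libraries with intervals that did not overlap, and the high stage exceeded the low one 24.3-fold (22.5 to 26.4) in MGJ and 12.1-fold (8.79 to 17.0) in MGJ2. Among all genes with enough UMIs these ratios stood at percentile 99.9 in MGJ and 99.7 in MGJ2. The gene also stood among the 10 leading genes of the Col10a1-rich cluster, which describes the same gradient in the same cells again and is no separate check. The 8 genes were left out when cells were clustered.

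**Figure D1:**
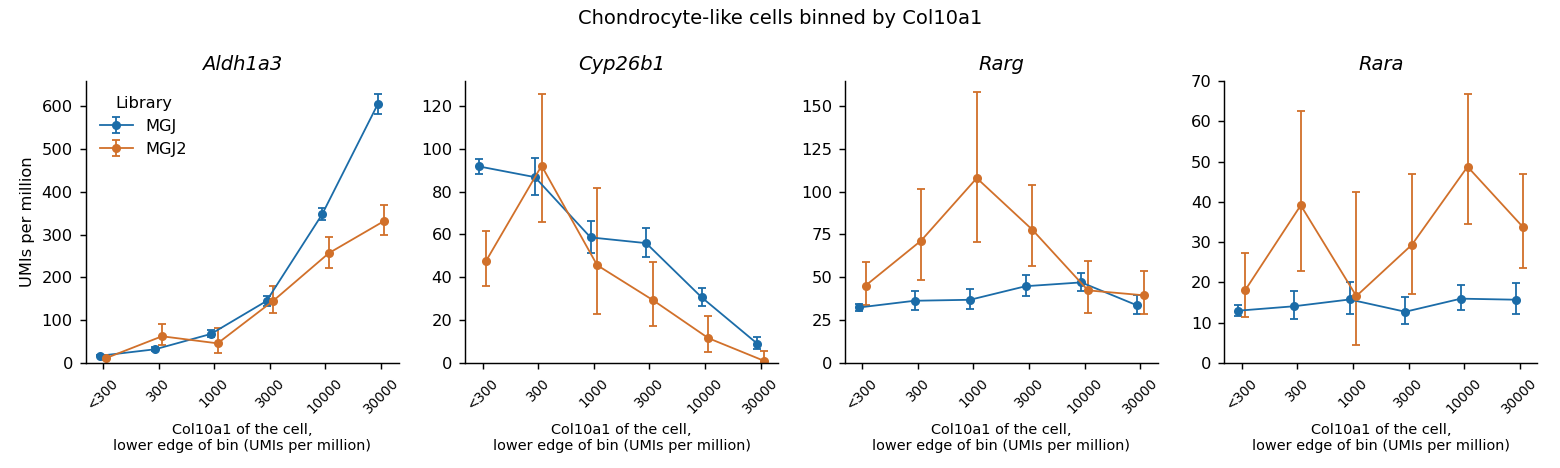
CPM (vertical axes, linear from 0) of Aldh1a3, Cyp26b1, Rarg and Rara in chondrocyte-like cells of library MGJ (blue) and MGJ2 (orange), in 6 bins of the cell's own Col10a1 level (horizontal axes), with exact Poisson 95% intervals as bars. Aldh1a3 goes from 16.5 to 605 CPM across the bins of MGJ while Cyp26b1 goes from 91.8 to 8.97 CPM.

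The gradient of Aldh1a3 ran through the stages and was not a step at the cuts. Across 6 bins of Col10a1 in MGJ, its level was 16.5, 31.9, 67.6, 145, 347 and 605 CPM. The top bin of MGJ2 reached 332 CPM from 11.5 CPM in the lowest, with 62.2 and 45.6 CPM in the next bins, whose intervals overlap. More cells also held the transcript. After each cell was thinned to 2000 UMIs in 1 random draw, a UMI of Aldh1a3 was found in 3.07% of low-stage, 16.5% of moderate-stage and 46.4% of high-stage cells of MGJ (16.4%, 48.1% and 77.0% without thinning). The same shares were 1.75%, 22.2% and 31.6% in MGJ2. Neutrophil-like cells, taken as a class that should lack the gene, gave 0.325% and 0.236% after thinning, at a median of 1882 and 2474 UMIs per cell before it, where high-stage cells had 21268 and 28974.5.

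Outside cartilage Aldh1a3 was scarce. Chondrocyte-like cells as a whole carried 119 CPM against 8.11 CPM in all other kept cells of MGJ, a ratio of 14.6 (13.4 to 16.0), and 159 against 2.11 CPM in MGJ2, a ratio of 75.1 (61.5 to 92.5). Among classes with at least 50 cells, the next in MGJ were an unnamed cluster led by Igkc and Gm26917 at 20.5 CPM and an unnamed cluster led by Tnmd and Aspn at 19.2 CPM, which did not differ from each other, nor the second from the low stage, beyond counting error. Some smaller classes had higher values from few UMIs. Reticular stromal-like cells held 52.8 CPM in MGJ (3 UMIs in 2 cells) and 43.5 CPM in MGJ2 (10 UMIs in 20 cells), the Cd36 and Ear2 cluster of MGJ 24.9 CPM (1 UMI), and osteoblast-like cells of MGJ2 33.3 CPM, where 9 of the 11 UMIs lay in 1 of 12 cells. UMIs of cartilage genes also appeared in cells that should not express them. Neutrophil-like cells held Col2a1 at 803 CPM in MGJ and 72.9 CPM in MGJ2. At the ratio of Aldh1a3 to Col2a1 seen in chondrocyte-like cells that level goes with 1.71 and 0.261 CPM of Aldh1a3, and the measured levels were 2.64 and 0.765 CPM.

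Cyp26b1 (chr6:84571414-84593908, minus strand), the degrading enzyme, ran the other way. Its level in MGJ was 91.2 CPM (88.1 to 94.3, 3325 UMIs) in the low stage, 57.2 CPM (52.3 to 62.5) in the moderate stage and 22.1 CPM (19.4 to 25.0, 251 UMIs) in the high stage. In MGJ2 it was 59.3 CPM (48.1 to 72.2, 98 UMIs), 34.1 CPM (22.7 to 49.3) and 5.50 CPM (2.64 to 10.1, 10 UMIs). The high stage thus held 0.242 times (0.212 to 0.276) the level of the low stage in MGJ and 0.0928 times (0.0431 to 0.178) in MGJ2. In the bin of highest Col10a1, Cyp26b1 was at 8.97 CPM in MGJ and 0.963 CPM in MGJ2, the latter a single UMI in 32 cells. The order was not without exception, since in MGJ2 the second bin held 92.1 CPM (65.8 to 125) and the lowest 47.6 CPM (36.1 to 61.5). The share of thinned cells with a UMI of Cyp26b1 was 16.3%, 10.2% and 3.41% from low to high in MGJ, and 5.26% and 3.70% in the low and moderate stages of MGJ2. It was 0 of 57 high-stage cells there, which allows up to 6.27%. Neutrophil-like cells gave 0.186% in MGJ and 0 of 1692 in MGJ2, which allows up to 0.218%.

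Cyp26b1 was spread over several sub-clusters of the chondrocyte-like cells. The one led by Ucma and Penk held the most, at 109.9 CPM (105 to 115, 823 cells of MGJ), and the cycling sub-cluster led by Ube2c and Cdk1 held 90.7 CPM (80.8 to 101, 119 cells). The sub-cluster led by Col10a1 and Aldh1a3 held 26.7 CPM of Cyp26b1 beside 444 CPM of Aldh1a3 (553 cells of MGJ). Chondrocyte-like cells held 5.41 times (5.04 to 5.82) the Cyp26b1 level of all other kept cells in MGJ and 27.8 times (20.4 to 38.2) in MGJ2.

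Cyp26b1 was also found in some cells outside the chondrocyte-like class. In MGJ the Tnmd and Aspn cluster held 37.3 CPM, osteoblast-like cells 33.2 CPM and pericyte or smooth muscle-like cells 33.0 CPM, which did not differ from one another beyond their intervals. These classes also held Col2a1, at 3648, 15572 and 379 CPM. At the ratio of Cyp26b1 to Col2a1 seen in chondrocyte-like cells, those levels go with 4.72, 20.1 and 0.490 CPM of Cyp26b1. The part of cartilage RNA in the measured levels was not tested. In MGJ2, 43 of the 61 Cyp26b1 UMIs outside cartilage lay in 9 pericyte or smooth muscle-like cells, and 23 of those came from 1 cell. The level of Cyp26b1 in these 9 cells was 340 CPM, above the 59.3 CPM of the low-stage chondrocytes of MGJ2. The class had too few cells to be placed in the order of classes.

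Of the 8 genes, 5 in MGJ and 4 in MGJ2 had the 50 UMIs over both stages that a fold was read from. With a limit of 2-fold, Aldh1a3 was higher and Cyp26b1 lower in the high stage of each library. Over all genes, 8.03% were at least 2-fold higher and 10.1% at least 2-fold lower in MGJ (12130 genes), and 6.83% and 8.90% in MGJ2 (6059 genes), so that 1 gene in each direction out of 5 or 4 is not read as a result about the list. Between neighbouring stages, Aldh1a3 was at least 2-fold higher in the moderate than in the low stage (5.88-fold in MGJ, where 2.89% of all genes were higher, and 4.67-fold in MGJ2, where 3.45% were) and in the high than in the moderate stage (4.14-fold and 2.59-fold, background 3.77% and 3.35%). Lower by that limit were Crabp2 in the moderate against the low stage of MGJ (0.383, background 5.97%, and 3.95% in MGJ2, where 0 of the 4 genes with enough UMIs were lower and Crabp2 had too few), Cyp26b1 in the high against the moderate stage of MGJ (0.386, background 2.56%) and Rarg in that of MGJ2 (0.470, background 5.24%). The median high over low ratio of the genes with enough UMIs was 1.21 in MGJ and 1.24 in MGJ2, beside 0.975 for all genes in both. Against all other kept cells, Aldh1a3, Rarg and Cyp26b1 were at least 2-fold higher in the chondrocyte-like cells of both libraries (14.0% of 14641 genes were so in MGJ and 19.9% of 13056 in MGJ2), while Aldh1a1, Aldh1a2 and Crabp2 were at least 2-fold lower in MGJ (26.6% of all genes) and had too few UMIs in MGJ2 (32.8% lower). The median gene of this comparison lay at -0.22 (MGJ) and -0.36 (MGJ2) on the log2 scale. Median-of-ratios scaling sets that median to 0 and so raises every ratio, and in MGJ2 the share of higher genes among those at least 2-fold apart was 37.8% as given here and 49.1% under that scaling, with no gene of the 8 changing direction.

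**Figure D2:**
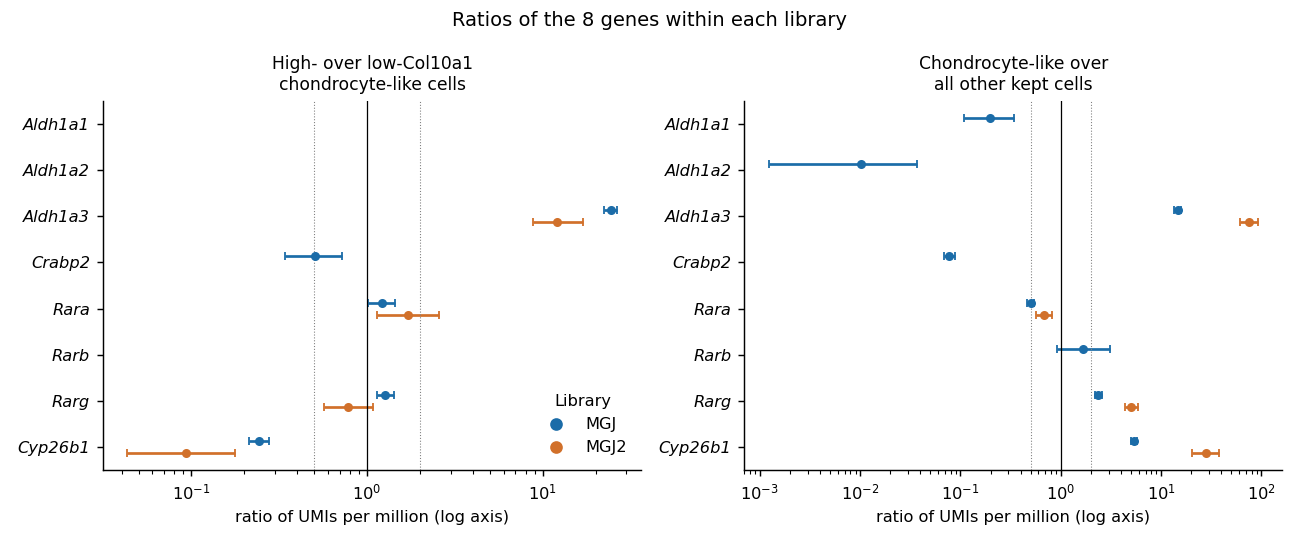
Ratio of CPM (log axis) of each gene with at least 50 UMIs over both sides, for library MGJ (blue) and MGJ2 (orange), with exact binomial 95% intervals as bars and dotted lines at a 2-fold difference. On the left, Aldh1a3 at 24.3 and 12.1 and Cyp26b1 at 0.242 and 0.0928 lie beyond the 2-fold lines, and on the right Aldh1a3, Rarg and Cyp26b1 lie above 2 in both libraries.

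Markers of other cells moved with the stages as well. The 7 osteoblast markers were all detected in every stage. They summed to 4830 CPM in the low and 2462 CPM in the high stage of MGJ, and to 14805 and 3046 CPM in MGJ2. Most of each sum was Col1a1, at 4508 and 1720 CPM in MGJ and 13536 and 2079 CPM in MGJ2. The rest of the sum was larger in the high than in the low stage of MGJ, and smaller in MGJ2. The 10 neutrophil markers summed to 1244 and 1698 CPM in MGJ, and to 1133 and 3569 CPM in MGJ2, where Ly6g was at 0 in both of these stages. Osteoblast-like cells themselves held 12.9 CPM of Aldh1a3 and 33.2 CPM of Cyp26b1 in MGJ, and 33.3 and 18.1 CPM in the 12 such cells of MGJ2. Neutrophil-like cells held 2.64 CPM of Aldh1a3 and 2.11 CPM of Cyp26b1 in MGJ, and 0.765 and 0.127 CPM in MGJ2. The part of these cells in the stage differences of Aldh1a3 and Cyp26b1 was not tested.

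Rarg (chr15:102234938-102257517, minus strand) was highest in the chondrocyte-like cells. It stood at 32.8, 41.0 and 41.7 CPM in the low, moderate and high stages of MGJ and at 52.0, 86.6 and 40.7 CPM in those of MGJ2. The high stage differed little from the low one, with a ratio of 1.27 (1.14 to 1.42) in MGJ and 0.782 (0.565 to 1.08) in MGJ2, an interval that includes 1. The moderate stage of MGJ2, with 27 cells and 71 UMIs of which 15 came from 1 cell, lay above the high stage (high over moderate 0.470, 0.335 to 0.660). In both libraries the chondrocyte-like stages led the order of classes with at least 50 cells, and over all other kept cells the ratio was 2.37 (2.20 to 2.56) in MGJ and 5.06 (4.33 to 5.91) in MGJ2. The Tnmd and Aspn cluster of MGJ, at 30.6 CPM, did not differ from the low stage beyond its interval (ratio of low stage to cluster 1.07, 0.961 to 1.20). Neutrophil-like cells held 2.20 and 1.78 CPM of Rarg.

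Rara (chr11:98927818-98974942, plus strand), the broadly expressed receptor, was instead high in mature B-like, T-like and NK-like cells. In MGJ it reached 82.4 CPM in mature B-like, 77.3 CPM in T-like and 72.4 CPM in NK-like cells, which rested on 16, 59 and 15 UMIs and did not differ beyond their intervals. In MGJ2 an unnamed cluster led by Cd36 and Ear2 held 114 CPM, NK-like cells 108 CPM, mature B-like cells 95.2 CPM and T-like cells 75.1 CPM, and of these neighbours only the last pair differed beyond counting error (1.27, 1.05 to 1.52). Endothelial-like, macrophage-like and neutrophil-like cells of MGJ followed at 54.4, 47.9 and 41.4 CPM. In MGJ2 endothelial-like cells held 57.7 CPM and monocyte-like cells 50.6 CPM. The 21 macrophage-like cells of MGJ2, fewer than the 50 needed for the order, held 111 CPM. Pre-B-like cells were low, at 5.58 CPM in MGJ (4 UMIs) and 16.8 CPM in MGJ2. Among classes with at least 50 cells, myeloid progenitor-like cells had the lowest value in both libraries, at 4.51 CPM in MGJ and 2.62 CPM in MGJ2. They did not differ beyond counting error from the class above them, which was pre-B-like in MGJ (1.24, 0.296 to 3.94) and mast or basophil-like in MGJ2 (2.28, 0.668 to 6.25).

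In the chondrocyte-like cells Rara was lower than in the pool of all other kept cells. It stood at 13.8 against 27.5 CPM in MGJ (ratio 0.503, 0.462 to 0.547) and 31.0 against 45.4 CPM in MGJ2 (0.682, 0.568 to 0.812). Not every other class was higher. Counted from the highest class, the high, moderate and low stages of MGJ stood at places 11, 15 and 16 of 20. The Tnmd and Aspn cluster of MGJ held 15.4 CPM, osteoblast-like cells 15.2 CPM and an unnamed cluster led by Cxcl5 and Sfrp1 12.5 CPM. In MGJ2 the high and low stages stood at places 9 and 12 of 15. The stages of Rara lay close together in MGJ at 13.1, 14.1 and 15.8 CPM (high over low 1.21, 1.01 to 1.44). In MGJ2 they were 23.6, 25.6 and 40.1 CPM (1.70, 1.14 to 2.58).

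**Figure D3:**
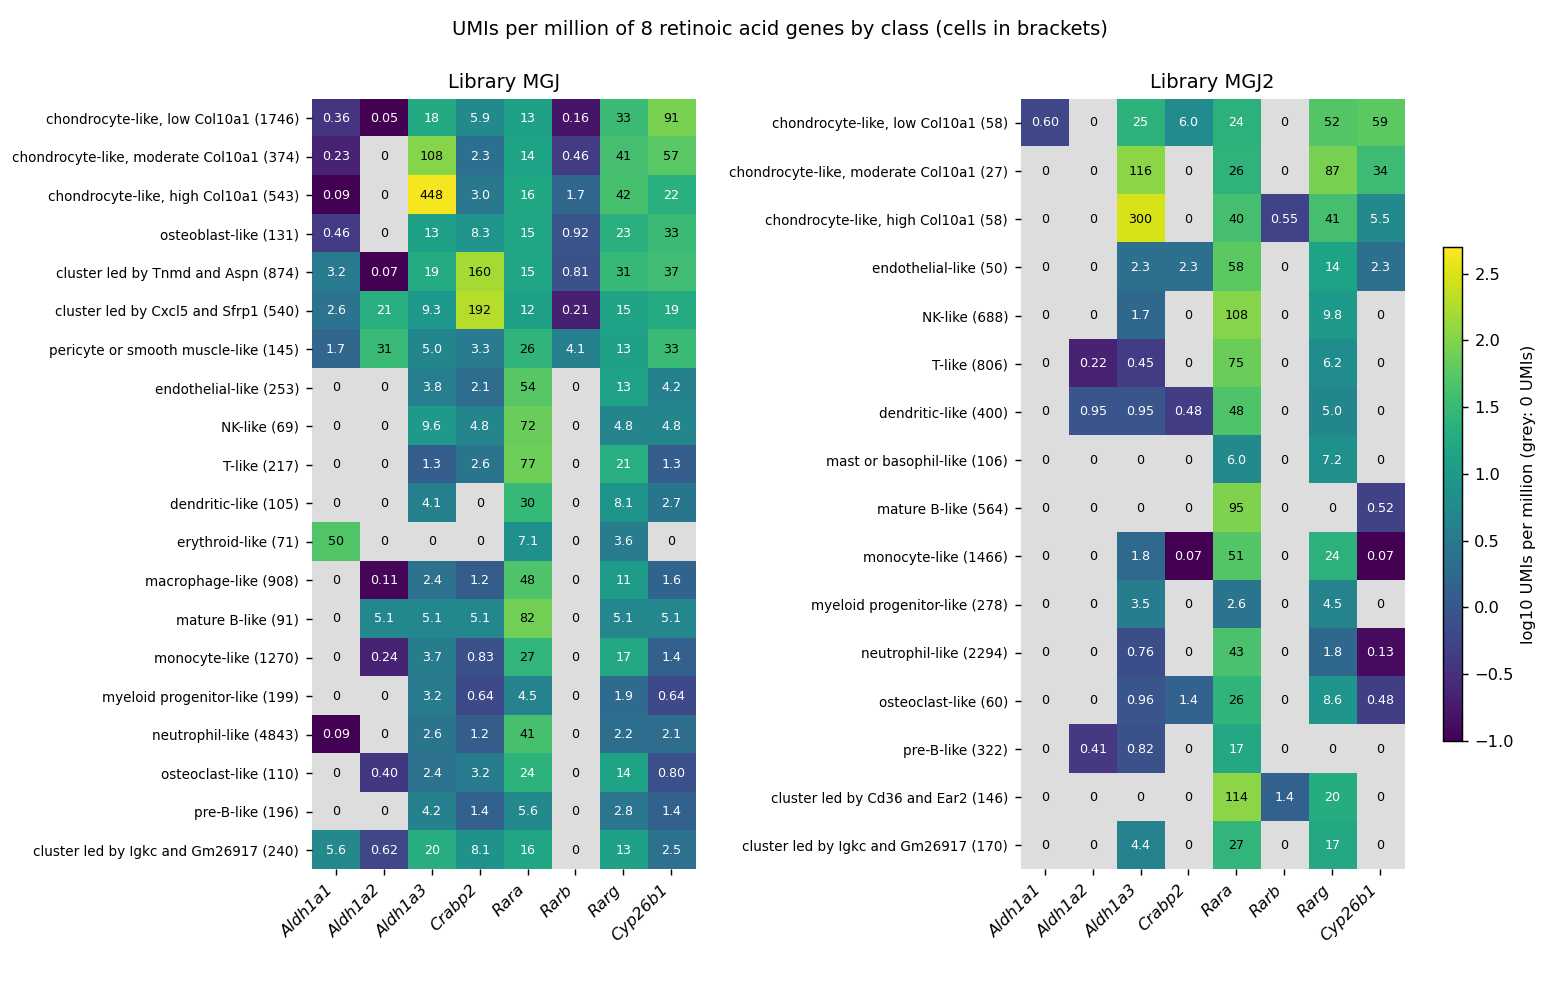
CPM (printed in each square, colour on a log10 scale, grey for 0 UMIs) of the 8 genes in each class of at least 50 cells, with the moderate stage of MGJ2 added, in library MGJ on the left and MGJ2 on the right, and the number of cells in brackets. Aldh1a3 is brightest in the high-Col10a1 row. In MGJ, Crabp2 is brightest in the clusters led by Cxcl5 and Sfrp1 and by Tnmd and Aspn. In MGJ2, where neither cluster has a row, Crabp2 is highest in the low-Col10a1 row at 6.05 CPM. Rara is brightest in the mature B-like, T-like and NK-like rows and, in MGJ2, the Cd36 and Ear2 cluster.

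Rarb (chr14:16430839-16819156, minus strand), the receptor whose promoter is printed above, was nearly silent, with 50 UMIs in all kept cells of MGJ and 3 in those of MGJ2. Of the 50, 19 lay in high-Col10a1 cells (1.67 CPM, 1.01 to 2.61, in 16 cells), 4 in moderate-stage cells (0.456 CPM) and 6 in low-stage cells (0.164 CPM, 0.0604 to 0.358), fewer than the 50 UMIs set for a fold. The Tnmd and Aspn cluster held 12 UMIs, and pericyte or smooth muscle-like cells had the highest level of a class, 4.13 CPM (1.34 to 9.63) from 5 UMIs. The stages of MGJ2 held 0, 0 and 1 UMI of Rarb, and 3 UMIs in the low stage would be 1.81 CPM, where the exact Poisson interval reaches 2.23 CPM. Rarb overlaps Top2b and Gm48162, which are encoded on the other strand.

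Crabp2 (chr3:87948666-87953376, plus strand), the carrier, was found mainly in 2 unnamed clusters of MGJ. The unnamed cluster led by Cxcl5 and Sfrp1 held 192 CPM (183 to 201, 1803 UMIs in 540 cells) and the unnamed cluster led by Tnmd and Aspn held 160.0 CPM (154 to 167, 2358 UMIs in 874 cells). Both expressed fibroblast markers such as Col3a1, Postn and Dcn but had more leading genes of other lists, and so carry no cell type name here. The first exceeded the second 1.20-fold (1.13 to 1.28), and the second exceeded osteoblast-like cells, next in order at 8.29 CPM, 19.3-fold (12.2 to 32.6). Chondrocyte-like cells held 5.95, 2.28 and 2.99 CPM from low to high stage. After thinning, 24.0% of the cells of the Cxcl5 cluster and 18.4% of those of the Tnmd cluster had a UMI of Crabp2, against 0.139% of neutrophil-like cells. MGJ2 had none of the Cxcl5 cluster and 9 cells of the Tnmd cluster, and held 26 UMIs of Crabp2 in all, of which 10 were in low-stage chondrocytes and 9 in 1 osteoblast-like cell.

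**Figure D4:**
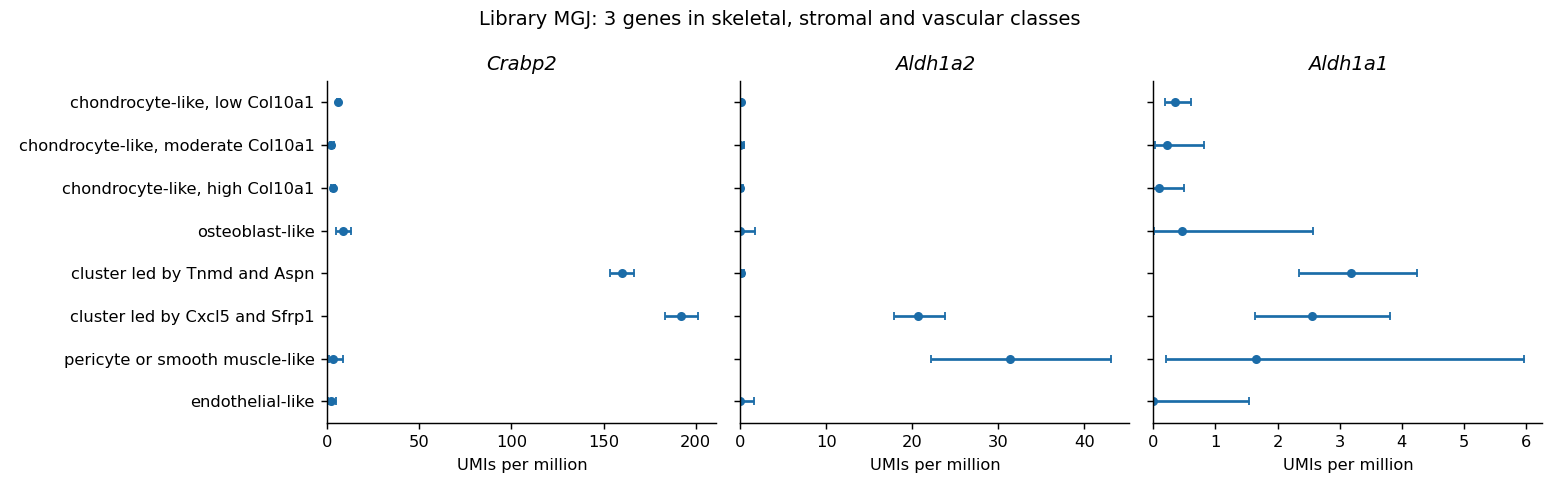
CPM (linear axes from 0, a different scale in each panel) of Crabp2, Aldh1a2 and Aldh1a1 in skeletal, stromal and vascular classes of library MGJ, with exact Poisson 95% intervals as bars. Crabp2 stands at 160.0 and 192 CPM in both unnamed clusters, and Aldh1a2 at 20.7 CPM in the Cxcl5 cluster and 31.4 CPM in pericyte or smooth muscle-like cells.

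Aldh1a2 (chr9:71215789-71296243, plus strand), the main retinoic acid-making enzyme of the embryo, was found in MGJ mainly in 2 classes. Of its 242 UMIs, 194 were in the Cxcl5 cluster (20.7 CPM, 17.9 to 23.8) and 38 in pericyte or smooth muscle-like cells (31.4 CPM, 22.2 to 43.1), a 1.52-fold difference (1.04 to 2.16). Few cells carried them, 64 of 540 and 12 of 145, and the richest single cells held 21 and 11 UMIs. Chondrocyte-like cells of MGJ had 2 UMIs of Aldh1a2 in 2663 cells, 0.0102 times (0.00122 to 0.0371) the level of the other cells, and those of MGJ2 had 0. The 20 UMIs of Aldh1a2 in MGJ2 came mostly from 1 reticular stromal-like cell, which held 14.

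Aldh1a1 (chr19:20492715-20643465, plus strand), whose sequence is close to that of its neighbour Aldh1a7, had 114 UMIs in MGJ and 20 in MGJ2. Erythroid-like cells led in MGJ at 49.8 CPM (27.2 to 83.5), from 14 UMIs in 8 of 71 cells, and 13 of the 20 UMIs of MGJ2 lay in 2 of its 4 erythroid-like cells. The value in erythroid-like cells of MGJ was 24.3 CPM with equal weight for every cell and 18.0 CPM with each cell named by its highest marker score. With at least 500 genes per barcode, the Tnmd and Aspn cluster led the classes of at least 50 cells instead, at 3.16 CPM. Reads that match both Aldh1a1 and Aldh1a7 could be lost or misplaced, and the same cells held 3 and 2 UMIs of Aldh1a7. The Tnmd and Aspn cluster had 3.19 CPM of Aldh1a1 (47 UMIs in 40 cells), the Cxcl5 cluster 2.56 CPM, and the low-stage chondrocytes 0.356 CPM.

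At the main settings in MGJ, the 3 synthesis genes thus had different classes at the top. Aldh1a3 was highest in high-Col10a1 chondrocytes, Aldh1a2 in pericyte or smooth muscle-like cells and then the Cxcl5 cluster, and Aldh1a1 in erythroid-like cells. The lead of Aldh1a1 rested on 14 UMIs and, among classes of at least 50 cells, was lost with at least 500 genes per barcode. That of Aldh1a2 passed to mesenchymal progenitor-like cells with cells named one by one. Col10a1-rich chondrocytes of MGJ held 1 UMI of Aldh1a1 and 0 of Aldh1a2 beside 5093 of Aldh1a3. A UMI of a 3′ library counts a molecule whatever its length, so these numbers compare captured molecules, though capture may differ from gene to gene.

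The other genes of the pathway, 38 in 8 roles, were read in the same way. In the high against the low stage, 24 had enough UMIs in MGJ and 15 in MGJ2. At least 2-fold higher were 3 in MGJ (Rbp4, Rdh10 and Ncoa3) and 2 in MGJ2 (Rbp4 and Rdh10), and at least 2-fold lower were 0 in MGJ and 1 in MGJ2 (Fabp5). These shares stand beside the 8.03% and 10.1% of all genes in MGJ and the 6.83% and 8.90% in MGJ2, and the median ratio of the list was 1.12 and 1.05. In chondrocyte-like against all other kept cells of MGJ, 2 of 28 pathway genes were at least 2-fold higher and 10 lower. In MGJ2 it was 7 and 8 of 26. Of all genes, 14.0% were higher and 26.6% lower in MGJ, and 19.9% and 32.8% in MGJ2.

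Among uptake and storage genes, Rbp4, the secreted carrier of retinol, was at 735 CPM in the low and 2519.8 CPM in the high stage of MGJ (ratio 3.43, 3.37 to 3.49) and at 385 and 1408 CPM in MGJ2 (3.65, 3.35 to 3.99). Over all other kept cells the chondrocyte-like cells held 7.19 times as much Rbp4 in MGJ and 293 times in MGJ2. Lrat, which esterifies retinol for storage, had 0 UMIs in the kept cells of both libraries, and Stra6, a retinol uptake receptor, had 35 and 11.

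Rdh10, the enzyme of the first oxidation step from retinol to retinaldehyde, shared its direction with Aldh1a3. It was at 6.31 CPM in the low and 28.0 CPM in the high stage of MGJ (4.44, 3.74 to 5.28) and at 9.68 and 79.2 CPM in MGJ2 (8.18, 4.87 to 14.7). In MGJ, however, the Cxcl5 cluster held 105 CPM and pericyte or smooth muscle-like cells 88.4 CPM of Rdh10, so that chondrocyte-like cells as a whole lay below the rest (0.396, 0.361 to 0.434). Both of those classes also held Aldh1a2. In MGJ2 Rdh10 was instead at least 2-fold higher in chondrocyte-like than in all other kept cells, as were 19.9% of all genes. Dhrs3, which returns retinaldehyde to retinol, was at 49.1 and 46.9 CPM in the 2 stages of MGJ and 56.3 and 58.8 CPM in MGJ2. Rdh12 and Dhrs9, other retinoid dehydrogenases, were highest in neutrophil-like cells, Rdh12 at 195 and 233 CPM and Dhrs9 at 62.8 and 157 CPM.

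**Figure D5:**
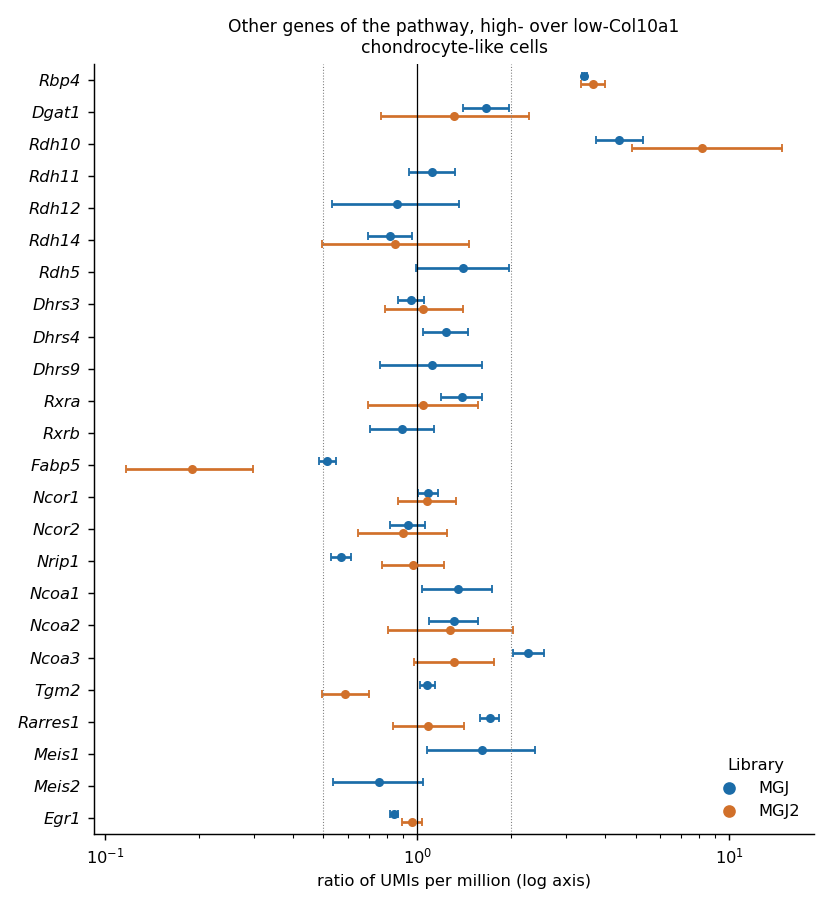
Ratio of CPM in high- over low-Col10a1 chondrocyte-like cells (log axis) for the genes of the wider pathway with at least 50 UMIs over both stages, in library MGJ (blue) and MGJ2 (orange), with exact binomial 95% intervals as bars and dotted lines at a 2-fold difference. Rdh10 at 4.44 and 8.18 and Rbp4 at 3.43 and 3.65 lie farthest to the right, and Fabp5 at 0.515 and 0.190 farthest to the left.

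Rxra, a partner receptor, was at 15.7 CPM in the low and 21.7 CPM in the high stage of MGJ (1.39, 1.19 to 1.61) and 29.0 and 30.2 CPM in MGJ2 (1.04, 0.694 to 1.57). Rxrb was lower in chondrocyte-like than in other cells (0.484 and 0.362 times) and highest in pre-B-like cells, at 53.0 and 55.8 CPM, while Rxrg had 37 and 5 UMIs. The other degrading enzymes, Cyp26a1 and Cyp26c1, were barely seen, Cyp26a1 with 9 and 7 UMIs and Cyp26c1 with 0 in both. Fabp5, which carries retinoic acid to a different nuclear receptor, was at 207 and 107 CPM in the 2 stages of MGJ (0.515, 0.484 to 0.547) and 69.6 and 13.2 CPM in MGJ2 (0.190, 0.117 to 0.296), and was highest in macrophage-like cells of MGJ at 4755 CPM.

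Of the genes known to respond to retinoic acid, Rarres1 had the largest ratio of cartilage to other cells, at 90.3 CPM in chondrocyte-like against 2.23 CPM in other cells of MGJ (40.4, 34.4 to 47.7) and 75.0 against 0.299 CPM in MGJ2 (251, 152 to 444). In the high against the low stage Rarres1 stayed within 2-fold (1.70 and 1.08), as did Tgm2 (1.08 and 0.588). The moderate stage of MGJ held 2.01 times (1.88 to 2.15) the Rarres1 level of the low stage. There Rarres1 was the 1 pathway gene of 24 at least 2-fold higher, beside 2.89% of all genes. In MGJ2, 0 of 12 pathway genes, Rarres1 among them, were at least 2-fold higher in that comparison, beside 3.45% of all genes. Stra8 had too few UMIs for a fold, as had Meis1 and Meis2 in MGJ2. Rarres2, by contrast, sat in the Aldh1a2-expressing classes of MGJ, at 179 CPM in pericyte or smooth muscle-like cells and 173 CPM in the Cxcl5 cluster, and at 0.919 CPM in chondrocyte-like cells.

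Genes with a pattern like that of each member were sought among 10090 genes, by Pearson's r of log2(CPM + 10) over 17 named classes and stages of MGJ and 13 of MGJ2. These points share libraries and depth, so r is a description. The unnamed clusters, among them those led by Tnmd and by Cxcl5, were not among the points. In MGJ2 the low and high stages were the only chondrocyte-like points. For Aldh1a3 the closest were Wnk4 (0.981 and 0.997), Ihh (0.963 and 0.995) and Col10a1 (0.962 and 0.972), and the stages were cut on the last of these. For Cyp26b1 they were Pkdcc (0.956 and 0.986), Col12a1 (0.963 and 0.955) and Srpx (0.953 and 0.948). Rarg was followed by Raph1 (0.890 and 0.913), Sdc3 and Slc12a4, and Rara, with the weakest likeness, by Shisa5 (0.834 and 0.807), Arih1 and Lncpint. The remaining 4 members had fewer than 100 UMIs in MGJ2 and were left out.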

How the data were processed

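The deposited matrices hold raw UMI counts per gene and barcode, made by the authors from 10x 3′ (V3) libraries with Cell Ranger 4.0.0 (file headers). GRCm38 and Seurat are named in the submitters' processing notes, and the gene annotation is not given in the sources used here. Cells aimed at were 5000 per library. Barcodes with fewer than 200 genes (371 in MGJ, 70 in MGJ2) or over 20% mitochondrial UMIs (464 and 133) were removed, as were doublet scores (Scrublet method, scanpy 1.11.5) above 0.25 (513 and 238, or 3.81% and 3.05%). The automatic doublet threshold called 0 and 223, so 0.25 was set after the scores were seen, and fewer were called than the 10.8% and 6.24% expected from loading. Both libraries were clustered together (2000 variable genes without the members and pathway genes, 30 components, Leiden resolution 1) and clusters were named from 24 marker lists. A name needed at least 20 cells, 3 detected markers and no other class with more among the 10 leading genes. It also needed a marker score of at least 1, the mean log2 level of the list above the average of the clusters. A cluster of low depth also needed a marker of its own class among its leading genes. Chondrocyte-like clusters were clustered again, and 1 sub-cluster led by Ifitm5 and Bglap was set apart as osteoblast-like. UMIs were summed per class and divided by the class total (CPM). Genes named are the 8 members, 38 pathway genes, genes that identify a class, and the 3 genes most like each member with 100 UMIs in each library. Members, lists and naming limits were chosen with earlier results of these data known. The ratio script was tested on simulated data. GENCODE M21, used for positions, held 32158 of the 32285 gene identifiers. Other cell filters, clusterings, stage cuts, scalings, UMI minimums and thinning depths were tried. Python 3.11.15, scipy 1.17.1 and leidenalg 0.10.2 were used. Some pathway genes are not reported here.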

Additional observations from a re-analysis of the deposited data

Results flagged for a closer look

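The 8 genes were also read in the barcodes that the filters removed. Their summed level there was 144 CPM (137 to 152, 1405 UMIs in 1348 barcodes) in MGJ and 76.0 CPM (66.9 to 86.0, 253 UMIs in 441 barcodes) in MGJ2, above the 0.308 and 0.901 CPM that a count of 0 allows (3 UMIs), beside 183 and 76.6 CPM in the kept cells. These barcodes enter no comparison above.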

How the results depend on the processing

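Of 432 values recomputed under 18 other settings, 329 were called the same, 103 were not, and 0 ratios changed direction. A ratio or share was the same if it stayed in its interval, and a count if it stayed within 1.5-fold. A highest class was the same if its name stayed, whatever its level. Of the 103, 28 were changes of the highest class and 31 were shares of cells with a UMI (of 48). The highest class of Rara passed in MGJ to T-like or NK-like cells under 5 of 9 settings (74.8 to 88.0 CPM) and in MGJ2 to NK-like cells under 4 (105 to 109.7 CPM). That of Crabp2 passed in MGJ to fibroblast-like, mesenchymal progenitor-like or Tnmd-led cells under 3 (171 to 196 CPM) and changed in MGJ2 under 4 (2.31 to 17.5 CPM). With cells named one by one, Cyp26b1 of MGJ2 was highest in pericyte or smooth muscle-like cells (128 CPM), Aldh1a2 in mesenchymal progenitor-like cells of MGJ (33.3 CPM) and reticular stromal-like cells of MGJ2 (29.7 CPM), and Aldh1a3 of MGJ2 in osteoblast-like cells (73.5 CPM), since 49 high-stage cells were below the 50 needed for the order. The low stage of MGJ2 was likewise left out at Leiden resolutions 0.5 and 2 (40 and 49 cells), where Cyp26b1 led elsewhere at 4.55 and 23.1 CPM. Rarg changed only among chondrocyte stages and a cluster led by Col10a1 and Aldh1a3. Thinned to 1000 UMIs, Aldh1a3 was found in 26.8% of high- and 2.18% of low-stage cells of MGJ, and in 17.2% and 3.45% in MGJ2. For high over low stages, Cyp26b1 in MGJ was 0.311 with the Col10a1 cuts halved, 0.195 with them doubled and 0.399 between cells split into 3 equal parts by Col10a1 (lowest against highest part), where Aldh1a3 was 19.2. In MGJ2 Aldh1a3 was 25.3 (cuts halved), 27.7 (3 equal parts), 8.30 (Leiden resolution 0.5) and 8.67 (each cell named by its highest marker score), and Cyp26b1 was 0.269 with cuts halved. For chondrocyte-like over other cells in MGJ, Aldh1a3 and Cyp26b1 were 11.0 and 4.77 with doublet calls kept and 11.7 and 4.46 with cells named one by one, and Aldh1a3 and Rarg were 11.97 and 2.04 at resolution 0.5. With equal weight for every cell, Aldh1a3 was 18.3, Crabp2 0.213, Rara 0.334, Rarg 3.70 and Cyp26b1 10.1. Scaled without the 50 most abundant genes they were 17.6, 0.0937, 0.607, 2.86 and 6.53, and under median-of-ratios scaling 17.1, 0.0907, 0.588, 2.77 and 6.32. In MGJ2 Aldh1a3 was 93.7 with at most 10% mitochondrial UMIs and 49.2 with cells named one by one, Cyp26b1 was 15.02 at resolution 0.5 and 42.5 with equal weights, and Rara was 0.517 with equal weights. Without the 50 genes, Aldh1a3, Rara and Rarg were 95.4, 0.866 and 6.43, and under median-of-ratios scaling 96.7, 0.877 and 6.51. Genes at least 2-fold apart between the stages numbered 2200 in MGJ and 1272 at a minimum of 200 UMIs, and 953 in MGJ2, 1731 at 20 UMIs and 340 at 200. A higher minimum leaves fewer genes to test. The cause of the other shifts was not tested. No paired analysis was possible because each library is 1 sample with no group in the labels. Low counts limit Aldh1a1, Aldh1a2, Crabp2 and Rarb in MGJ2, each with at most 26 UMIs. The median UMIs per barcode were close, 5026 in MGJ and 4952 in MGJ2. MGJ2 held no cell of the Cxcl5 cluster and 9 of the Tnmd cluster. It had 9 pericyte or smooth muscle-like and 4 erythroid-like cells.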
